A study of Mus musculus with 8 samples.

Results

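Transcripts of 10 genes, the AP-1 family members Fos, Fosb, Fosl2, Jun, Junb, Jund and Atf3 and the immediate early genes Egr1, Ier2 and Ier3, were followed in mouse neural stem cells and in astrocytes made from them. The members are the probes whose platform gene symbol is one of these names, 12 of the 24613 probes on each array. The genes were selected on their group difference and on how their replicates varied together on these same arrays, so the members' own values, and the counts of members called, are a description: no p-value is printed for a member and nothing is supported with them. RNA came from 4 replicate cultures of NS5, an adherent mouse neural stem cell line kept dividing with growth factors, and from 4 replicate cultures of NS5-derived astrocytes. For the astrocytes, NS5 cells on a gelatin coat had gone 3 days without growth factors and with 5% FCS, fetal calf serum, a protocol meant to give GFAP-positive cells. No genotype difference or other agent is given in the labels, every culture belongs to the same line, and in both groups cells were detached from the plate and pelleted before lysis in TRIzol. Each RNA was amplified, labelled with biotin and hybridised to its own single-colour Illumina mouse bead array, and the design compares both cell states.

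AP-1 is a dimer of basic leucine zipper proteins, in which a FOS protein pairs with a JUN protein, JUN proteins also pair with themselves, and ATF proteins can take the place of FOS. Immediate early genes are transcribed within minutes of a growth factor, serum, calcium or stress signal without new protein synthesis, largely through ERK and other MAP kinases that act on factors bound at serum response and cAMP response elements, and their mRNAs are short-lived. In glia FOS, JUNB and EGR1 are widely used as marks of recent stimulation.

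The labelled cell types were checked first. Gfap, the intermediate filament gene of astrocytes, was not above an estimated background limit on any NS5 array and had normalized signals of 1670, 1987, 3722 and 1901 on astrocyte arrays 1 to 4. Of 11 astrocyte markers tested, 8 rose and 0 fell with limma at an adjusted p under 0.05. Signals are in scanner units after quantile normalization, and the background limit was 35.4 to 39.8 units per array. The mean raw signal per array was 513 to 648 in NS5 cells and 469 to 566 in astrocytes, and 46.0% to 47.9% of probes exceeded the limit. Over the whole array 10377 genes were tested and 59.2% were called, 29.2% higher and 30.0% lower in astrocytes. The p-values measure the spread between replicate cultures of a single line, and the precision is limited by the 4 arrays per group.

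Fos, Fosl2, Junb, Ier3 and Atf3 had the highest astrocyte-over-NS5 differences of the set, Jun and Jund were higher by less than 1 log2 unit, and Egr1 overlapped between the groups. Of the 10 genes, 8 passed the filter on dim probes, a mean log2 value above 7.02 over all arrays. Among these 8, 7 were called higher and 0 lower, beside 29.2% higher over all genes, and in 6 every astrocyte array lay above every NS5 array, beside 26.9% of all genes. The share of all genes with every NS5 array above was 28.0%, and that without overlap in either direction 54.9%. The choice of members used this same contrast, so nothing is read from these counts. The median log2 difference of the 8 was 2.29, against -0.02 over all genes tested. Atf3 passed the filter only through its astrocyte values, with a mean log2 of 7.05 over all arrays, while Fosb at 6.66 and Ier2 at 6.34 did not pass. In these bulk samples, fewer cells that express a gene and less RNA per cell cannot be told apart.

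**Figure D1:**
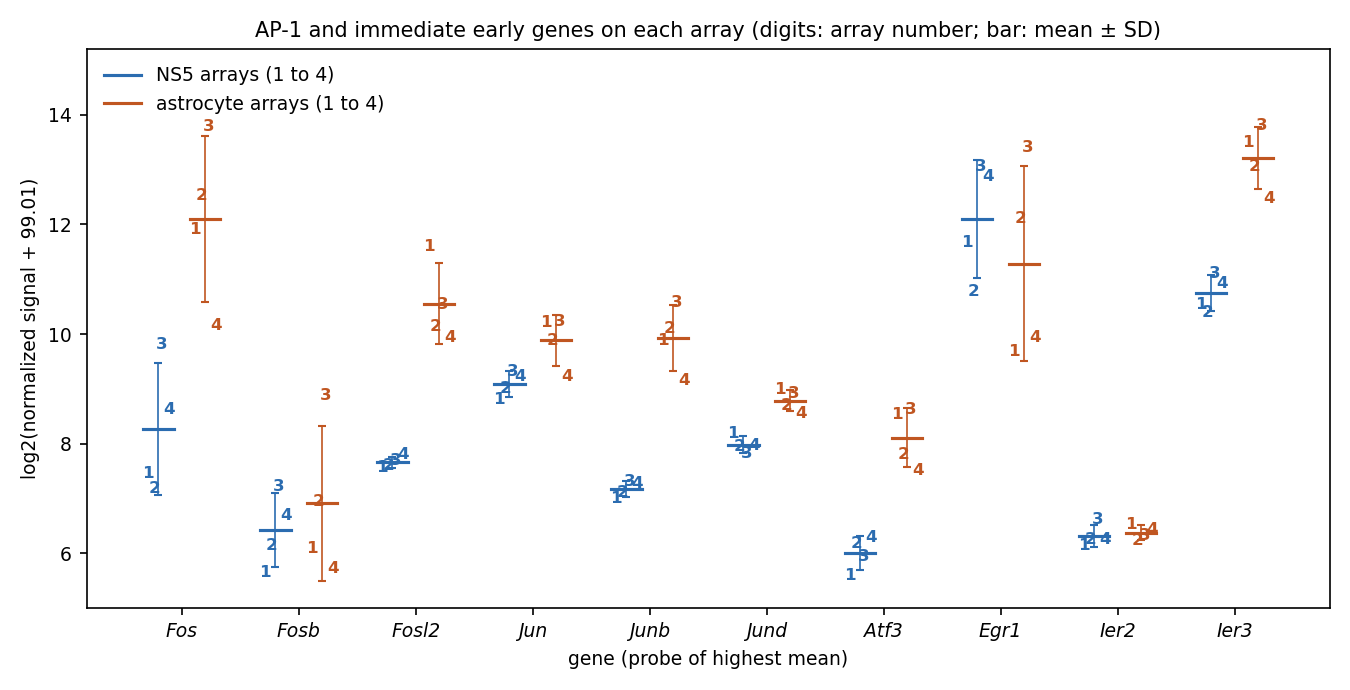
Each digit is the array number of a culture, placed at its log2(normalized signal + 99.01) for the probe of highest mean of each gene, with NS5 arrays in blue and astrocyte arrays in orange, and the bars give the mean ± SD of 4 arrays. Fos, Fosl2, Junb, Jund, Atf3 and Ier3 have all astrocyte digits above all NS5 digits, the Egr1 digits of the astrocytes extend above and below those of NS5 cells, and Ier2 stays near the bottom.

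The sequences before the transcription starts of the 5 tested members with the highest differences are shown because these genes were high together in astrocytes. They are the 250 bases upstream of the annotated start in RefSeq, build GRCm38.p6, 5′ to 3′ on the gene's strand. Fos lies on chr12:85473640-85473889 (+ strand), Fosl2 on chr5:32136222-32136471 (+), Junb on chr8:84978749-84978998 (-), Ier3 on chr17:35821463-35821712 (+) and Atf3 on chr1:191183334-191183583 (-). Capitals mark matches to the motifs that were searched.
Fos: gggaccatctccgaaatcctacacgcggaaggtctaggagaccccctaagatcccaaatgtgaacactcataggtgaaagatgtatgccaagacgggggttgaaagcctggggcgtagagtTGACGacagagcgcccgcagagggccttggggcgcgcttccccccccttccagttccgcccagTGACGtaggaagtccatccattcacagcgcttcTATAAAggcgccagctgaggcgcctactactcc
Fosl2: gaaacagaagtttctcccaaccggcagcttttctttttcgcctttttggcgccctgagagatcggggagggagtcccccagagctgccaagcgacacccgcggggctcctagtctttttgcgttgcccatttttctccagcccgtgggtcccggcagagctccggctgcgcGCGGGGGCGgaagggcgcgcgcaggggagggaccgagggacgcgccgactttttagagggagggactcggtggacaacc
Junb: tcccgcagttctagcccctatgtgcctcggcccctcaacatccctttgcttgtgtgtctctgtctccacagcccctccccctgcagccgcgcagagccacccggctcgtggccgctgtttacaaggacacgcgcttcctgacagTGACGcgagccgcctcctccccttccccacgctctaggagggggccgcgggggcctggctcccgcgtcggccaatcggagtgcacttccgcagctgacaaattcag
Ier3: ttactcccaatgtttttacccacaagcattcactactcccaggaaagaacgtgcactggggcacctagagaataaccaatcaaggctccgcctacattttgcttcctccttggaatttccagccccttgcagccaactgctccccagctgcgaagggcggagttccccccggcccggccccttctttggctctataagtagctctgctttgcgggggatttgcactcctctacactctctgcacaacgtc
Atf3: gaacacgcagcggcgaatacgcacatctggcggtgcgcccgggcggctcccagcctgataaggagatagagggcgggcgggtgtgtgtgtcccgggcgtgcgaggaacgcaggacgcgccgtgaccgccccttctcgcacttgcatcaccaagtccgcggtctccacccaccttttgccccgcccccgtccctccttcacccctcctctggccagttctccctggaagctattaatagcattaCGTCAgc

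Of the 10 members, 8 had an upstream sequence in the RefSeq table, and Egr1 and Ier2 did not. Both strands were searched for the AP-1 site TGANTCA, the full cAMP response element TGACGTCA, its core TGACG, the CArG box of serum response factor, the EGR site GCGNGGGCG and the TATA box TATAAA, where a full element would also count as its core. The core TGACG was found in Fos, Fosb, Junb and Atf3, that is in 4 of 8 members, against 17.8% of the 32851 promoters of the table over the same length. In Fos it stood at 129 and again at 66 bases before the start, in Junb at 106, in Fosb at 60, and in Atf3 as its reverse complement at 7 bases before the start. The EGR site was found in Fosb and Fosl2, 2 of 8, against 4.70% of promoters, and TATAAA in Fos alone, against 12.4%. The AP-1 site, the full element and the CArG box had 0 matches in these 8 windows, where 6.75%, 1.55% and 1.47% of promoters hold one. A match is a description of the letters and not a binding site, and the windows do not reach farther upstream elements.

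Among the FOS proteins, Fos had the largest difference of the set. Fos, whose product needs a JUN partner to bind DNA, had signals of 76.9, 45.2, 800.1 and 296 on NS5 arrays 1 to 4 and of 3739, 5833, 14089 and 1045 on astrocyte arrays 1 to 4. The lowest astrocyte array thus lay above the highest NS5 array, but by little next to the range within each group, which was 17.7-fold in NS5 cells and 13.5-fold in astrocytes. The log2 difference was 3.83 ± 0.69 (SE), and the means were 305 ± 349 (SD, n = 4) and 6176 ± 5627. In both groups array 3 held the highest value.

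Fosb, a close relative of Fos that is induced by the same signals, was above background on only 1 array of each group, again array 3. Its signal there was 49.3 in NS5 cells and 372 in astrocytes, and on the other arrays it ran from -49.3 to 3.73 in NS5 cells and from -46.2 to 23.8 in astrocytes. The groups overlapped, and Fosb was not tested. With the filter removed its log2 difference was 0.49.

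Fosl2, which encodes the FOS-related protein FRA-2, gave values that depended on the probe. By its brightest probe, ILMN_1252481, signals were 89.6, 93.7, 106.8 and 122.8 in NS5 cells and 2982, 1025, 1397 and 886 in astrocytes, with no overlap and a log2 difference of 2.90 ± 0.27 (SE). The NS5 arrays were close together while astrocyte array 1 stood 3.37-fold above array 4. A second probe, ILMN_2718801, was above background on every array and gave 60.8, 52.6, 67.7 and 43.1 in NS5 cells against 56.4, 61.0, 38.7 and 50.7 in astrocytes, a log2 difference of -0.04. The other, ILMN_2768924, was not above background on any array. Averaging the probes that passed the filter lowered the difference to 1.43. Which transcripts the 3 probes read is not given in the files.

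**Figure D2:**
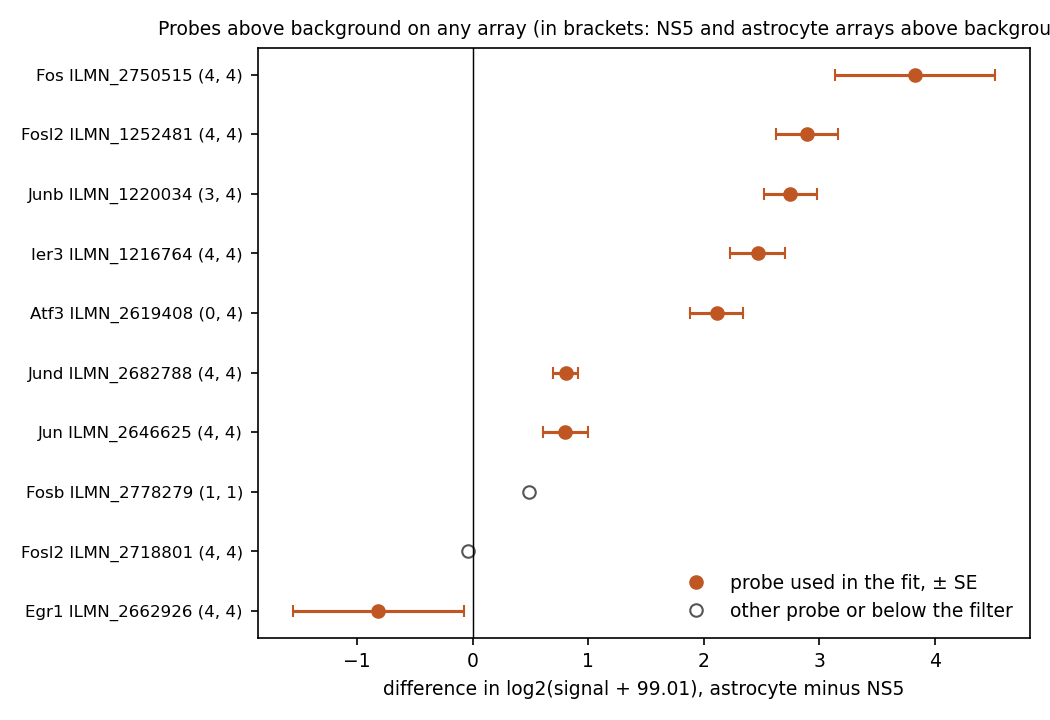
The difference in log2(signal + 99.01), astrocyte minus NS5, is plotted for the 10 probes that were above background on at least 1 array, with bars of ± SE for the 8 probes used in the fit and open circles for the others; brackets give the number of NS5 and astrocyte arrays above background. Fos stands at 3.83 and Egr1 at -0.82, and the plotted Fosl2 probes lie at 2.90 and -0.04.

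Of the JUN proteins, Junb had a difference well above those of Jun and Jund on the log2 scale. Junb, a JUN protein that activates transcription less strongly than JUN at many sites, had signals of 28.9, 39.3, 60.2 and 54.9 in NS5 cells, above background on 3 of the 4 arrays, and of 840, 1004, 1426 and 467 in astrocytes. The groups did not overlap, and the log2 difference was 2.75 ± 0.23 (SE). The ratio of the 2 mean signals was 20.4, larger than the log2 value implies, because the added offset understates changes from dim signals.

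Jun, the main partner of FOS, had 347, 412, 539 and 499 in NS5 cells and 1090, 848, 1094 and 501 in astrocytes. Astrocyte array 4 lay between NS5 arrays 4 and 3, so the groups overlapped, although the log2 difference was 0.80 ± 0.20 (SE). Jund, which is expressed more evenly than the other JUN genes and is less dependent on stimulation, had 191, 148, 126 and 151 in NS5 cells against 406, 318, 381 and 277 in astrocytes. Its groups did not overlap, and its log2 difference of 0.81 ± 0.11 (SE) had the smallest error of the set. The ratio of the mean signals of Jund was 2.24, again larger than the log2 value with the offset implies.

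Atf3, a stress-induced ATF/CREB factor that forms dimers with JUN proteins, was below background on the NS5 arrays, at -50.8 to -20.7, and reached 269, 124, 293 and 82.0 in astrocytes. It was at least 2.01-fold higher in astrocytes, a bound set by the lowest signal above background on the NS5 arrays. The offset is kept on both sides of that bound, which makes it smaller than a ratio of printed signals. The fitted log2 value was 2.11, which depends on the offset.

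Egr1, a zinc finger factor and a classic target of ERK and serum response factor, was the only tested member with a negative difference. Its signals were 3165, 1649, 8487 and 7465 in NS5 cells and 727, 4320.2, 10733 and 879 in astrocytes. Astrocyte array 3 was the highest of the 8 and astrocyte arrays 1 and 4 were the lowest, so that the astrocyte values lay on both sides of the NS5 values. The log2 difference of -0.82 ± 0.74 (SE) was close to its error, and over 18 alternative analyses, none of which called it, it ran from -1.52 to -0.28. The lowest came without astrocyte array 3, and the value was -0.28 without astrocyte array 1.

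Ier3, a rapidly induced gene whose product has been linked to cell survival and ERK signalling, had signals of 1397, 1247, 2098 and 1852 in NS5 cells and of 11446, 8459, 14158 and 5627 in astrocytes. The groups did not overlap and the log2 difference was 2.47 ± 0.24 (SE). Ier2, an early gene encoding a nuclear protein, was not above background on any of the 8 arrays, with signals from -28.9 to -1.43 in NS5 cells and from -24.0 to -6.86 in astrocytes. Its level is therefore unknown here, and no difference is given for it.

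Fos and Egr1 were among the genes that varied most between replicate cultures, while other members varied less. The SD of the log2 values within a group had a median of 0.27 over the 8 tested members in NS5 cells and 0.58 in astrocytes, against 0.11 and 0.13 over all genes tested. Atf3 was below background on every NS5 array, where its SD is scatter near the floor, and without it the NS5 median of the other 7 was 0.23. The SDs are of log2 values with the offset added, which compresses spread at dim signals. The NS5 SDs of members dim in NS5 cells are therefore understated next to their astrocyte SDs. From lowest to highest array, Junb signals spanned 2.08-fold in NS5 cells and 3.05-fold in astrocytes, and Fos signals 17.7-fold and 13.5-fold. By SD in NS5 cells Fos ranked 2 and Egr1 ranked 4 of the 10377 genes, at 1.21 and 1.08. In astrocytes Egr1 ranked 3 and Fos ranked 5, at 1.78 and 1.51, and Fosl2 ranked 31 at 0.73, though its NS5 value of 0.11 was near the median of all genes. Junb and Jund stood at the 72.5th and 75.8th percentiles in NS5 cells. Jund was the least variable in astrocytes, at 0.19, the 78.5th percentile of all genes. Without astrocyte array 4 the median astrocyte SD of the members was 0.37.

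**Figure D3:**
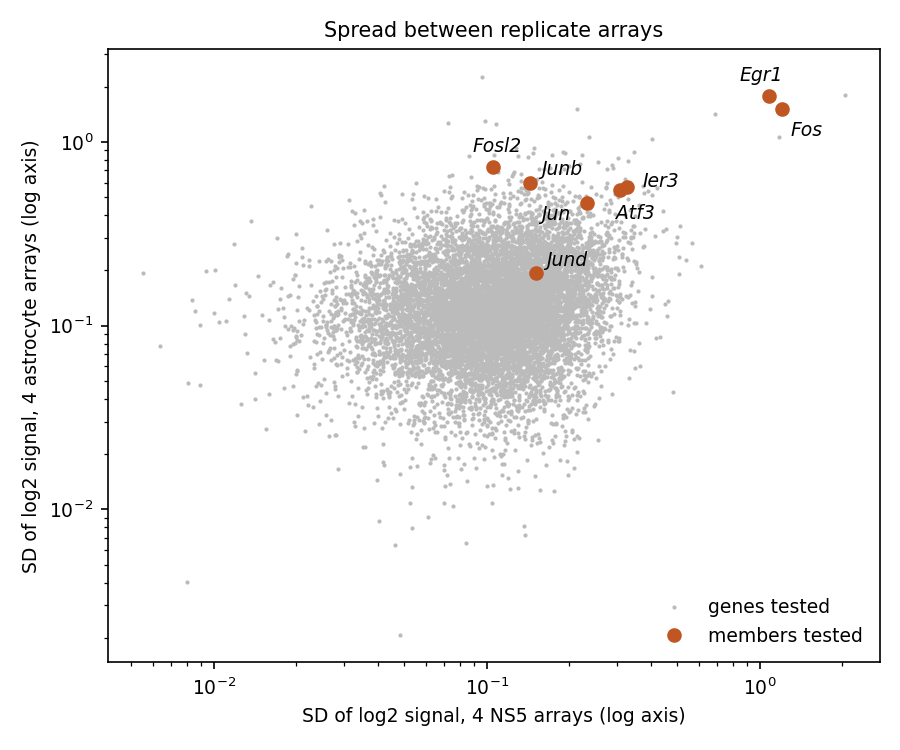
For each gene tested, the SD of log2 signal over the 4 NS5 arrays (x, log axis) is plotted against that over the 4 astrocyte arrays (y, log axis), with the 8 tested members as large points. Fos and Egr1 lie in the far upper right with SDs above 1 on both axes, and Jund lies inside the cloud.

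The members also deviated from their group means on the same arrays. In astrocytes array 3 held the highest value for 6 of the 8 tested members, beside 23.2% of all genes, and array 4 the lowest for 7 of 8, beside 24.7%. The median deviation of the 8 from the astrocyte mean was 0.55 on array 3 and -0.69 on array 4 on the log2 scale, while over all genes it was within 0.013 of 0 on each astrocyte array. In NS5 cells array 3 was highest for 5 of 8 members, beside 24.4% of all genes, and arrays 1 and 2 held the lowest value for 4 and 3 of them, beside 27.0% and 21.3%. In astrocytes the exceptions were Fosl2 and Jund, which were highest on array 1, and Egr1, which was lowest there. In NS5 cells Fosl2 and Atf3 were highest on array 4, and Jund was highest on array 1 and lowest on array 3. Atf3 and Junb were both lowest on NS5 array 1. Atf3 was below background on every NS5 array and Junb was above it on only 3, so their order there is partly order near the floor.

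Over the 8 arrays, with each group centred on its own mean, the Pearson correlation of a member with the mean of the other 7 was 0.95 for Ier3, 0.93 for Fos and for Junb, 0.88 for Jun, 0.65 for Atf3, 0.64 for Egr1, 0.30 for Jund and 0.27 for Fosl2. The mean was taken over unscaled deviations, so Fos and Egr1, with the largest SDs of the members, weighed most in it wherever they were included. For Atf3, 4 of the 8 values are below background, so its correlation rests in part on scatter near the floor. These values describe 4 arrays per group that share scaling and a single hybridisation each, and no p-value is attached. In raw mean signal, astrocyte array 4 was the lowest of its group at 469 and array 3 the next at 503, while NS5 array 3 stood at 639. Gfap was also highest on astrocyte array 3. The part of array signal or of any batch in this covariation was not tested, since the labels and files used here name no slide or scan date. With both arrays numbered 3 left out, an analysis added after their values were seen, 7 members passed the filter and 6 were called higher, and the log2 differences of Fos and Junb were 3.77 and 2.57. Over the whole array 5659 genes were then called in either direction, and nothing is read from the count of members.

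**Figure D4:**
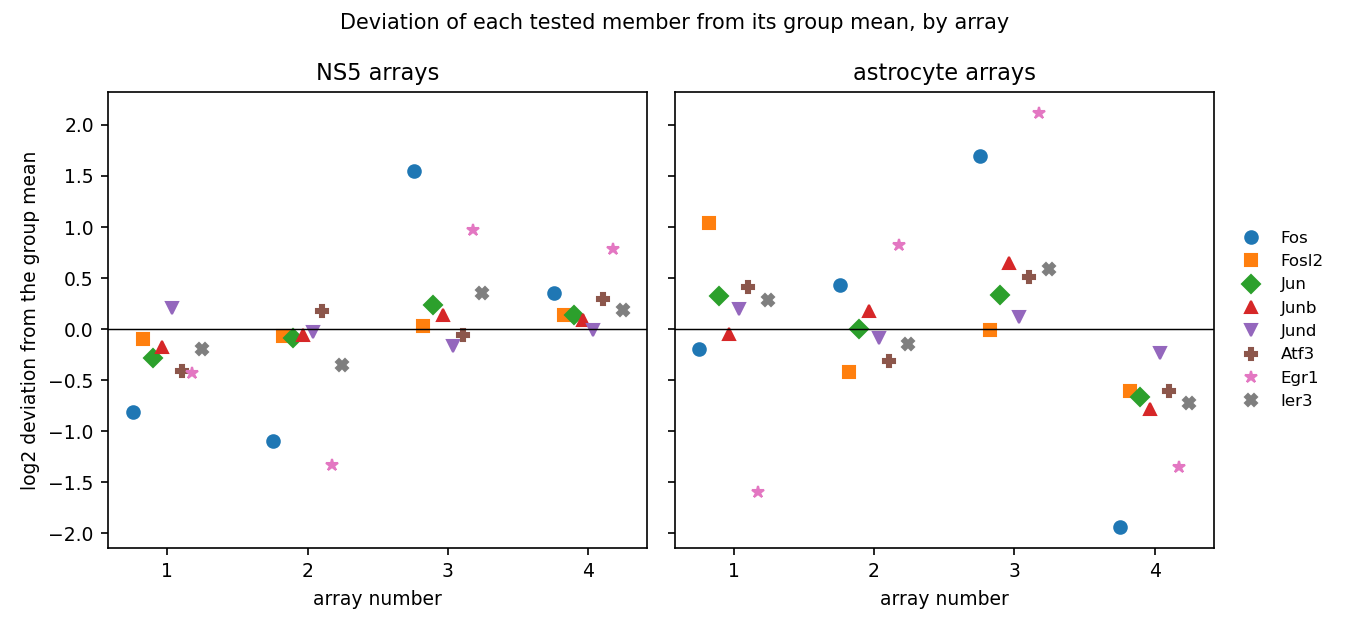
The log2 deviation of each of the 8 tested members from its group mean is plotted for NS5 arrays 1 to 4 (left) and astrocyte arrays 1 to 4 (right). On astrocyte array 4 every member lies below 0, and on astrocyte array 3 and NS5 array 3 Fos and Egr1 lie highest.

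The genes that followed the members most closely across replicates were looked for among the 351 genes that were not members and had a within-group SD of at least 0.2 in both groups. The 8 with the highest correlation to the members' mean over the 8 group-centred arrays were Pvalb (0.96), Klf2 (0.94), Dusp6 (0.93), Lypla1 (0.89), Apc (0.89), Spry4 (0.88), Nfkbiz (0.88) and Hnrnpk (0.88). That mean is unscaled, so likeness to it is weighted toward Fos and Egr1. Dusp6, a phosphatase that switches off ERK, and Spry4, an inhibitor of receptor tyrosine kinase signalling, were called lower in astrocytes, as were Lypla1 (-0.50 ± 0.14) and Hnrnpk (-0.76 ± 0.16) on the log2 scale. Dusp6 had 6312, 5213, 9238 and 7490 in NS5 cells and 423, 414, 495 and 241 in astrocytes, a log2 fold change of -3.86 ± 0.19 (SE). Its other passing probe gave -1.93. Spry4 fell by 3.59 on the log2 scale. Klf2, a Kruppel-like factor, rose by 1.30 ± 0.40 (limma, adjusted p = 0.0133), from 103, 155, 200 and 294 to 704, 562, 1443 and 172, with array 4 inside the NS5 range. It was not called without both arrays numbered 3, at 0.94 (limma, adjusted p = 0.0572, and 1.07e-04 to 0.0572 over its alternatives). Nfkbiz, an inducible nuclear regulator of NF-kappaB, rose by 1.58 ± 0.29. Pvalb, a calcium-binding protein, was below background on every NS5 array, so its correlation rests in part on scatter near the floor. It was at least 1.95-fold higher in astrocytes, and Apc did not pass the test (-0.21, limma, adjusted p = 0.242). The choice of these genes fixes their order over arrays, which is no further evidence.

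Other immediate early and rapid response genes moved in both directions between the groups. Of the 52 in the list, 50 were on the array, 13 never exceeded the background limit, and 33 were tested. Of these, 17 rose (51.5%, beside 29.2% of all genes) and 10 fell (30.3%, beside 30.0%). Their median was 0.40 in log2 fold change. Socs3, the feedback inhibitor of cytokine receptors, had signals of 26.0 to 39.2 in NS5 cells and of 1000.0, 2981, 5351 and 735 in astrocytes, a log2 fold change of 3.92 ± 0.46 (SE, limma, adjusted p = 8.02e-06). Only 1 of the NS5 arrays was above background, so the size depends on the offset, and it was 5.89 with signals under 16 set to 16 and 3.52 with a larger offset. Ccn1, a matricellular protein and target of serum response factor, was at least 4.10-fold higher. Its other probe put the bound at 2.26-fold, and Gadd45b, a stress and growth arrest gene, was at least 3.81-fold higher. Ccn1 and Gadd45b were also lowest on astrocyte array 4. Plk2, a polo-like kinase induced early by serum, fell from 6314 ± 358 (SD, n = 4) to 808 ± 117, or by -2.83 ± 0.09 in log2. Myc, the growth-promoting transcription factor, went below background in astrocytes and was at least 2.22-fold lower, with its other probe not above background on any array. Plk3, another polo-like kinase, fell by 1.19 on the log2 scale.

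The replicate order of the members in astrocytes was shared by part of this list. On astrocyte array 3, 17 of the 33 genes had their highest value, beside 23.2% of all genes, and on array 4, 22 of 33 had their lowest, beside 24.7%. In NS5 cells 11 were highest on array 3 and 12 on array 4, beside 24.4% and 24.7% of all genes. There 10 were lowest on array 1 and 14 on array 2, beside 27.0% and 21.3%. Klf2 and Nfkbiz belong to this list and were also picked above for likeness to the members, which fixed their order over arrays. The list was written with earlier results of these data known, so these counts are a description. Egr2, a relative of Egr1 named here after its values were seen, was above background on 2 arrays of each group, with 15.3, 13.6, 213 and 60.3 in NS5 cells and -26.5, 168, 539 and 1.04 in astrocytes. Like Egr1 it was highest on array 3 in both groups, and its groups overlapped, with a log2 difference of 0.24 ± 0.56 (SE, limma, adjusted p = 0.755). Among the 25 tested kinases, factors and corepressors, 2 were highest on astrocyte array 3 and 7 lowest on array 4. The same counts were 3 and 5 of the 9 tested other basic leucine zipper genes, and 4 and 5 of the 13 tested genes described as AP-1 targets. Of those 13, 7 were highest on astrocyte array 1, beside 27.8% of all genes.

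Other basic leucine zipper genes rose and fell in equal number. Of 21 listed, 17 were on the array and 9 were tested, of which 2 rose (22.2%, beside 29.2% of all genes) and 2 fell (22.2%, beside 30.0%). The list's median was -0.06 on the log2 scale. Fosl1, Batf, Batf2, Atf1 and Creb1 did not exceed the background limit on any array, so their levels are unknown here. Jdp2, a repressor that pairs with JUN, rose from 83.3 ± 6.33 (SD, n = 4) to 146 ± 29.8, which is 0.42 ± 0.09 in log2 (SE, limma, adjusted p = 0.00134). Creb3, a membrane-bound CREB factor, had 0.99 ± 0.09 by its brighter probe and -0.06 by another that was above background on all arrays. Atf4, the factor of the integrated stress response, fell from 5997 ± 381 to 3711 ± 451, a log2 fold change of -0.68 ± 0.09, and Atf5 fell by 0.42 on that scale.

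Kinases, factors and corepressors that act on these genes also changed in both directions. Of 34 listed, 25 were tested, and 6 rose (24.0%, beside 29.2% of all genes) and 11 fell (44.0%, beside 30.0%). Their median was -0.14 on the log2 scale. Stat3, the transcription factor of gp130 cytokines, rose from 3130 ± 166 (SD, n = 4) to 8164 ± 1957, with 1.33 ± 0.13 (SE) and 1.11 by its other probe. Rps6ka5 and Rps6ka4, which encode the histone H3 kinases MSK1 and MSK2, rose by 1.10 ± 0.10 and 0.44 ± 0.12, with overlapping groups for Rps6ka4. Nab1, a corepressor that binds EGR proteins, fell from 769 ± 40.5 to 386 ± 21.6, with -0.84 ± 0.07, and the ERK5 gene Mapk7 had -0.81 ± 0.07. A dimmer Nab1 probe, above background on the 4 NS5 arrays alone, gave -0.21. Map2k6, a kinase upstream of p38, was at least 1.39-fold lower, and its other probe, under the filter, put the bound at 1.09-fold. Another Rps6ka5 probe under the filter, above background on 3 astrocyte arrays alone, gave 0.24. Likewise a second Mapk7 probe under the filter, above background on 3 NS5 arrays alone, gave -0.30. Srf, the serum response factor itself, was named after its values were seen and did not pass the test, with 2346 ± 149 and 2288 ± 415 (limma, adjusted p = 0.752).

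Genes often described as AP-1 targets showed a mixed picture. Of 19 listed, 13 were tested, and 5 rose (38.5%, beside 29.2% of all genes), 1 fell (7.69%, beside 30.0%) and 7 did not pass the test. Their median was 0.17 on the log2 scale. Gfap was at least 16.7-fold higher, Hmox1, heme oxygenase, rose from 1057 ± 176 (SD, n = 4) to 7018 ± 2263, and Lgals3, galectin-3, went from below background on every NS5 array to 458 ± 98.7. Ccnd1, cyclin D1, was the single member of this list that fell, with a log2 fold change of -4.84 ± 0.20 (SE, limma, adjusted p = 4.96e-10) and -3.61 to -4.64 by its other probes. The matrix protease genes Mmp3 and Mmp10, the protease gene Plau, Cd44, Timp1, Vegfa and Spp1, named after their values were seen, did not pass the test. Mmp3, Mmp10, Plau, Cd44 and Timp1 were dim, with group means from 52.8 to 105 units, where the offset compresses any change. Spp1 was above background on 2 astrocyte arrays alone. A further 5 listed genes, Mmp13, Plaur, Il6, Tgfb1 and Fosl1, did not exceed the background limit on any array, so their levels are unknown here.

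**Figure D5:**
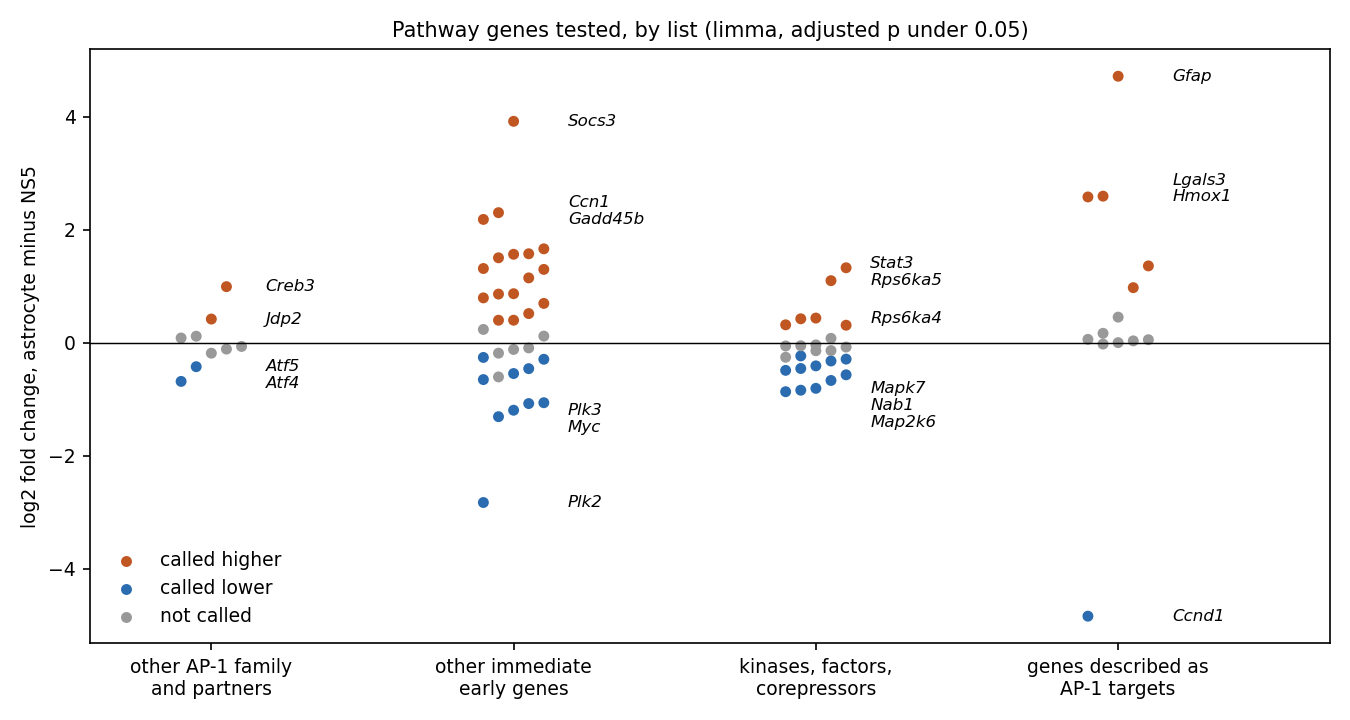
Each point is a tested gene of a pathway list at its log2 fold change, astrocyte minus NS5, coloured by the limma call at an adjusted p under 0.05, with up to 3 called genes named at each end. The other immediate early genes run from Plk2 at -2.83 to Socs3 at 3.92, and the other AP-1 family genes stay between -0.68 and 0.99.

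Markers of other cell types were set beside these results. The array held 10 markers of microglia and macrophages, of which 10 did not exceed the background limit on any array. Their summed signal was 42.6 to 85.6 in NS5 cells and 51.9 to 90.4 in astrocytes. Of 9 fibroblast and pericyte markers, 5 (Col1a1, Col1a2, Col3a1, Lum and Thy1) stayed below that limit throughout, and 1 of 4 tested rose. Their summed signal was 244 to 389 in NS5 cells and 439 to 728 in astrocytes. Of 9 neuron markers, 3 were not above background. Of the 5 tested, 2 rose (Gap43 and Gad1) and 1 fell (Map2), with sums of 904 to 988 and 960 to 1657. Endothelium markers summed to 172 to 199 and 165 to 227, with 4 of 7 not above background and 1 of 2 tested called higher. Oligodendrocyte lineage markers rose in 4 and fell in 1 of 6 cases, with sums of 37386 to 53012 and 14942 to 18436, and neural stem cell markers rose in 3 and fell in 3 of 7. Beside these counts, 29.2% of all genes tested were called higher in astrocytes and 30.0% lower. The part of these cell types in the members' values was not tested.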

How the data were processed

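Transcripts were measured in 4 NS5 and 4 astrocyte samples, 1 Illumina bead array each. The authors deposited linear probe intensities that go below 0, so a background had been subtracted; the labels and files used here state neither the scanner software nor the method. The authors also deposited log2 values with a floor at a signal of 10, which served as an alternative.

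Of 24613 probes, 20984 carried a single platform symbol, 687 were named by accession through RefSeq (GRCm38.p6), 1 had several symbols and 2941 had none. Intensities were raised by 99.01, which set the lowest to 16, log2 transformed and quantile normalized. Probes above the median mean log2 were kept, with the brightest per symbol (10377 genes). The background limit per array was 1.645 times the root mean square of its negative intensities. Printed signals had the offset removed again. A bound ("at least") compares the bright group's mean log2 value with the lowest values above that limit in the dim group. Both keep the added offset, so a bound is smaller than a ratio of signals without the offset would be.

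Genes were fitted with limma 3.58.1 in R 4.3.3 (group term, all 8 arrays), adjusted by Benjamini-Hochberg over all genes, after the procedure had been tested on simulated data. Motifs were searched in Python 3.11.15. Members, gene lists and alternatives were chosen with earlier results of these data known. Named were all members, up to 3 called genes at each end of each pathway list, and the 8 genes most like the members across arrays. Samples with the same number were not treated as pairs: the labels give no shared origin, and the correlations of their deviations were -0.05, 0.05, 0.15 and 0.07. Alternatives covered scaling, offset, filter, probe choice, replicate block, array weights and leaving out each array.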

Additional observations from a re-analysis of the deposited data

Results flagged for a closer look

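Plk2 on astrocyte array 3 stood apart from the other 3 arrays of its group, with a signal of 983 against 735 to 766, and its gap took up 0.859 of the group's range on the log2 scale, above Dixon's 95% critical value for 4 samples. It was the only such case among 80 groups of 4 arrays looked at, and chance gives about 1 in 20. All 4 values were far below the NS5 signals of 5945 to 6795.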

How the results depend on the processing

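Over 18 alternatives the count of genes called ran from 5659 to 6392, that of other immediate early genes from 15 to 18 higher and from 9 to 12 lower. Calls among members numbered 7 higher and 0 lower, except that Atf3 went under the filter whenever any astrocyte array was left out, and 6 of 7 tested were then called higher. Over all genes 29.2% were called higher in the main fit, and that share is not given for each alternative. The members were chosen on this contrast, so nothing is read from these counts. The members' median log2 difference rose to 2.97 with signals under 16 set to 16 and to 3.15 in the authors' log2 table, and fell to 1.46 without a filter, where the 10 genes include Fosb and Ier2. It ran from 2.19 to 2.71 when an array was left out, and the median astrocyte SD from 0.37 to 0.72. With that floor the differences of Fosl2, Junb, Jund and Atf3 were 3.77, 4.30, 1.16 and 3.39, and Atf3 had 4.07 in the authors' table and 1.54 with the larger offset. Among other genes with a printed size, the floor moved Jdp2 to 0.79, Rps6ka4 to 0.67, Mapk7 to -1.41, Lypla1 to -0.83, Apc to -0.32 and Socs3 to 5.89. It also moved Spry4 to -4.65, Plk3 to -1.68, Rps6ka5 to 1.53 and Klf2 to 1.68. These are examples, and other printed sizes moved with the floor too. The mean of passing probes moved Creb3 to 0.47. The offset compresses dim signals by construction. With the replicate block, 6074 genes were called and the counts of calls among members and other early genes were as without it. Of the called genes named, Klf2 alone lost its call, without both arrays numbered 3, and leaving out 1 array at a time gave it 0.91 to 1.76. No alternative that was run reversed the direction of a named gene's called difference. Fitted sizes for Fosb, Egr2, Socs3 and Atf3, which were below background on part of the arrays, depend on the offset, and 4 arrays a group limit the precision.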
